A study of Homo sapiens with 5 samples.

Results

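The kinesin motor genes described here are the 41 genes among 19229 autosomal protein-coding genes of GENCODE release 44, lifted to GRCh37, whose symbol is KIF followed by a number and an optional letter, or KIFC followed by a number. The rule uses names and position only, but the family was picked with earlier results of these data known. By their known roles, 13 members were grouped as mitotic kinesins, 16 as neuronal and vesicle transport kinesins, 6 as kinesins of cilia and the remaining 6 as other kinesins. Kinesins encoded on the X chromosome were left out by the same rule.

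Kinesins are motor proteins that use ATP to move along microtubules or to take them apart at their ends. Mitotic kinesins build the spindle, align chromosomes and close cell division, and most are made in dividing cells, whereas transport kinesins carry vesicles, organelles and protein complexes over long distances and several are enriched in neurons. PHF8 is a JmjC histone demethylase whose PHD finger binds trimethylated lysine 4 of histone H3, a mark of active promoters, and the study sought the genes it occupies in melanoma cells.

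PHF8 occupancy was measured by chromatin immunoprecipitation and sequencing (ChIP-seq) in the melanoma line SKMEL-147, an established cell line of human origin. There are 5 samples, 3 immunoprecipitations with an anti-PHF8 antibody (replicates A, B1 and B2) and 2 libraries of input chromatin (A and B). The series text speaks of an sgRNA loss-of-function model in this line, but the sample labels name no guide, genotype or treatment, so all samples are described only as SKMEL-147 chromatin. B1 and B2 share a letter with 1 input, and nothing in the labels says that the replicates came from separate cultures, so every p-value measures only the spread between these 3 samples, which may be technical.

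For A, B1 and B2, the lists held 21506, 20882 and 20120 peaks. Fold enrichment, the ratio of ChIP signal over the local background at the summit of a peak, had a higher scale in A (median 18.9 over all its peaks) than in B1 (11.8) or B2 (11.8). Levels were therefore compared within a replicate, or as the percentile of a gene among the autosomal protein-coding genes with a promoter peak in that replicate, of which there were 12148, 11928 and 11855. A promoter peak is a peak that overlaps the 1 kb on either side of any annotated transcription start site (TSS) of a gene, and a gene is called bound when it has one in all 3 replicates. Where a gene had several promoter peaks, the one with the highest fold enrichment was used.

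Stretches of 10 kinesin promoters are printed because most, but not all, mitotic members carry cell cycle promoter letters close to the TSS. The most strongly bound transport members mostly lack them. The stretches do not form a like comparison, because the printed mitotic members all hold such letters and the transport members were picked by peak height. Each runs from 100 bp before the canonical TSS to the end of the first 30 transcribed bases, 5′ to 3′ on the strand of the gene, in GRCh37. Capitals mark letters of the CHR element (TTTGAA), of the CCAAT box, to which NF-Y binds, and of an E2F site (TTGGCGC), on either strand. Read from the opposite strand, the CHR letters appear as TTCAAA, the CCAAT box as ATTGG and the E2F letters as GCGCCAA. CHR elements are bound by the DREAM and MuvB complexes, which hold cell cycle genes off in resting cells and turn them on before mitosis. The first 7 stretches belong to mitotic members, all of which hold CHR letters. KIF20A, KIF22, KIF2B and KIF2C, without CHR letters near the TSS, are not printed, nor are KIF20B and KIF4B, which hold them.
KIF11 (chr10:94352787-94352916, plus strand): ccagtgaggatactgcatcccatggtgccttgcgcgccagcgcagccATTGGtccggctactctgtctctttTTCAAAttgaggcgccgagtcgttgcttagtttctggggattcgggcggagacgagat
KIF14 (chr1:200589850-200589979, minus strand): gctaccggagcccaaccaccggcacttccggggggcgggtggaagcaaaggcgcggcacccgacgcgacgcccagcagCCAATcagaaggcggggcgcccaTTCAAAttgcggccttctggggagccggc
KIF15 (chr3:44803186-44803315, plus strand): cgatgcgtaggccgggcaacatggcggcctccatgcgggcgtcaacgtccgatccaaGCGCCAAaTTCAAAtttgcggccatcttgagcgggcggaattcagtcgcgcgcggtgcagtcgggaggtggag
KIF18A (chr11:28129674-28129803, minus strand): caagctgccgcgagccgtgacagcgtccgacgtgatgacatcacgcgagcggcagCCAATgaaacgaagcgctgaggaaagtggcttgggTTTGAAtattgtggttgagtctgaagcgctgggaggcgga
KIF18B (chr17:43025112-43025241, minus strand): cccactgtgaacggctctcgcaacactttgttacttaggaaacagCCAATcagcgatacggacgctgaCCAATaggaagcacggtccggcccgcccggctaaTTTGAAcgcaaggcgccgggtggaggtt
KIF23 (chr15:69706588-69706717, plus strand): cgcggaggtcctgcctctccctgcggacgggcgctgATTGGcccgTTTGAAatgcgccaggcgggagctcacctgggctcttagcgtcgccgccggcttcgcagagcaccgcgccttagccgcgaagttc
KIFC1 (chr6:33359500-33359629, plus strand): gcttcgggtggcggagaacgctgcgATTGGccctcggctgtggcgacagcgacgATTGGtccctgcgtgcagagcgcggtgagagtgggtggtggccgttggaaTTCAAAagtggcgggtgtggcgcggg
The next 3 belong to the transport members with the highest mean percentile of fold enrichment.
KIF5B (chr10:32345324-32345453, minus strand): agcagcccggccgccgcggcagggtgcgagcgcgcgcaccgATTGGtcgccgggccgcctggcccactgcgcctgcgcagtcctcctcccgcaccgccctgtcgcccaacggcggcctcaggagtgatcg
KIF21A (chr12:39836893-39837022, minus strand): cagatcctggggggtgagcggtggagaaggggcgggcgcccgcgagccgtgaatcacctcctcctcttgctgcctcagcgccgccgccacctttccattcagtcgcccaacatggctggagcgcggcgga
KIF3A (chr5:132073209-132073338, minus strand): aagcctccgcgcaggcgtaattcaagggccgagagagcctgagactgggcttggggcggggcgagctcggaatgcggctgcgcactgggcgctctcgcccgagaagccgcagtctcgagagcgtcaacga
In 5 of the 7 mitotic stretches a CCAAT box stands upstream of a CHR element at more than 20 bp between their first letters. Examples are KIF11 (at -53 and -28 bp from the TSS) and KIF14 (at -22 and 1 bp). Because every printed mitotic stretch holds CHR letters, this count only describes them, and the spacing was not counted over all promoters. In KIF23 the pair lies closer together, at -64 and -55 bp. KIF15 has an E2F site at -43 bp beside its CHR element at -35 bp and no CCAAT box.

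PHF8 was found at most kinesin promoters. Of the 41 members, 33 were bound in all 3 replicates (80.5%, 95% Wilson interval 66.0 to 89.8%), beside 61.0% of all autosomal protein-coding genes. No member was bound in only 1 or 2 replicates. Bound members made up 11 of 13 mitotic kinesins (84.6%, 57.8 to 95.7%), 14 of 16 transport kinesins (87.5%, 64.0 to 96.5%), 5 of 6 kinesins of cilia (83.3%, 43.6 to 97.0%) and 3 of 6 other kinesins (50.0%, 18.8 to 81.2%).

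Kinesin promoters were rich in CpG, so the share bound was also set beside that of promoters of the same kind. A promoter was called CpG-island-like when the 250 bp on either side of the canonical TSS reached a GC share of 0.5 and held CpG at 0.6 or more of the number expected from base content. This held for 38 of 41 kinesin promoters (92.7%) and for 67.7% of all autosomal protein-coding promoters. Among the CpG-island-like promoters, 33 of 38 kinesins were bound (86.8%), close to the 81.5% of all genes with such a promoter. The 3 members without one, KIF2B, KIF12 and KIF25, were all unbound, beside 18.1% bound among all genes of that kind. Transport promoters had a higher median GC content (74.5%) than mitotic promoters (61.7%), while all genes had a median of 64.7%.

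The bound kinesins held a middle rank among bound genes. Median fold enrichments of 34.6 (A), 18.4 (B1) and 19.9 (B2) stood beside 33.9, 19.7 and 18.7 over all 11730 bound genes. The median percentile over the 33 bound members was 53.3 (A), 46.0 (B1) and 56.0 (B2), a mean of 51.8 ± 5.18 (SD, n = 3). Over all bound genes it was 51.7, 50.8 and 50.5. By mean percentile over the replicates, 5 members fell below 25, 11 between 25 and 50, 14 between 50 and 75 and 3 above 75. The strongest peaks rested on 39 to 160 (A), 25 to 111 (B1) and 26 to 103 (B2) ChIP fragments at the summit, as recovered from the deposited values.

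**Figure D1:**
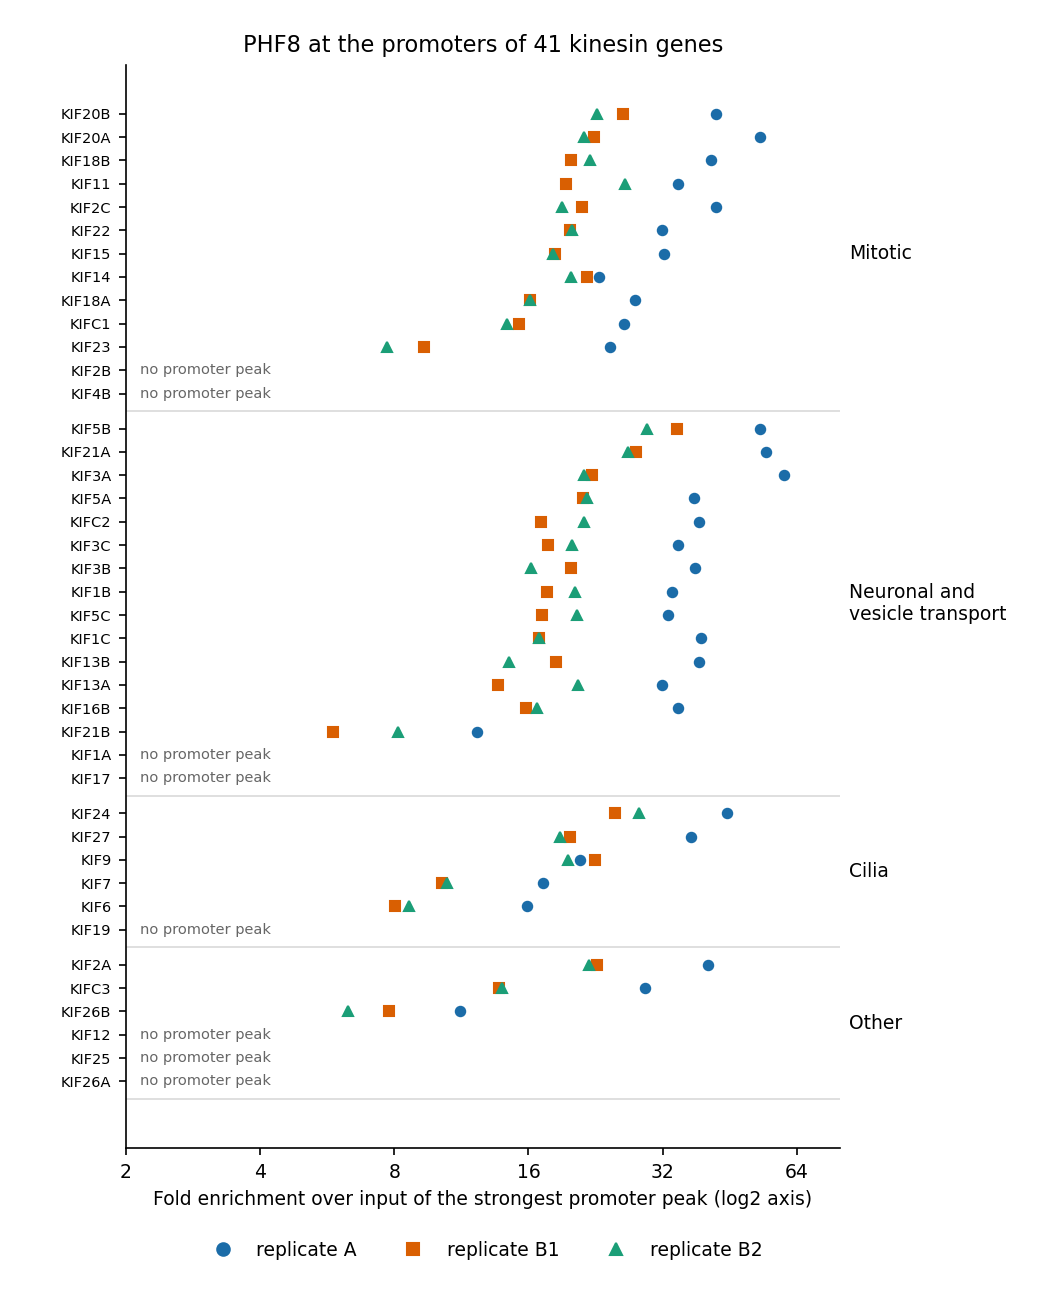
Fold enrichment over input of the strongest promoter peak (x axis, log2-spaced) for each of the 41 kinesin genes (y axis, grouped by role and ordered by mean percentile), with 1 marker per replicate. A sits to the right of B1 and B2 for every bound gene but KIF9, KIF5B, KIF21A and KIF3A reach 52.8 to 59.8 in A, and the 8 genes without a promoter peak are labelled so.

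Among the spindle motors, KIF11, the tetrameric motor that pushes spindle poles apart, had fold enrichments of 34.7, 19.4 and 26.3 in the order A, B1, B2, and a mean percentile of 61.2 ± 16.9 (SD, n = 3). The value in B2 came from a peak at a far upstream TSS that KIF11 is annotated with, 41 bp from the TSS of IDE, and the peak at the canonical TSS had 15.0 there. In A that canonical peak spanned chr10:94352396-94353357. KIF15, which can stand in for KIF11 in keeping the spindle bipolar, had 32.2, 18.4 and 18.1 (percentile 47.2 ± 1.45). KIFC1, a minus-end motor that clusters spindle poles and centrosomes, was lower at 26.2, 15.2 and 14.3, and its percentile of 32.4 ± 0.719 varied little between replicates.

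The chromosome and microtubule end motors ranked from the middle upward, apart from KIF18A. KIF18A, which damps chromosome movements at the metaphase plate, had 27.7, 16.2 and 16.1 (percentile 37.5 ± 1.496), all below its paralogue KIF18B, which shortens astral microtubules and had 40.98, 19.95 and 21.9 (61.8 ± 8.84). KIF2C, the microtubule depolymerase of centromeres also called MCAK, had 42.2, 21.1 and 19.0 (60.2 ± 10.5). KIF22, a chromokinesin that binds DNA along chromosome arms, had 31.9, 19.8 and 20.04 (51.7 ± 4.76), and 4 separate peaks lay in its promoter windows in each replicate.

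The motors of cytokinesis covered both ends of the mitotic range. KIF20B and KIF20A, related motors of the midzone and of late division, were the highest mitotic members, with 42.1, 26.0 and 22.8 for KIF20B (percentile 71.7 ± 3.82) and 52.8, 22.5 and 21.3 for KIF20A (71.3 ± 16.2). Both ranks rest on peaks whose summit is nearest to another gene, 59 to 91 bp from BRD8 for KIF20A and 2 to 8 bp from a long noncoding RNA, ENSG00000235100, for KIF20B. With peaks given only to the gene of the nearest TSS, KIF20A had 17.0, 15.2 and 11.8, and KIF20B had 34.7 in A, 15.4 in B2 and no peak in B1. KIF14, which recruits citron kinase to the midbody, had 23.0, 21.6 and 19.9, so that it ranked low in A (percentile 26.1) and above the median in B1 (58.9) and B2 (56.0). KIF23, the motor subunit of centralspindlin, was the lowest bound mitotic member, with 24.4, 9.31 and 7.69 and a mean percentile of 16.8 ± 10.6. No mitotic kinesin had a mean percentile above 75.

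Among the transport kinesins, the kinesin-1 heavy chain KIF5B, the widely expressed form, had the highest mean percentile of all 41 members (90.6 ± 2.81). Fold enrichments at its promoter were 52.8, 34.4 and 29.6 in A, B1 and B2, and in A the peak covered chr10:32344528-32345774 with a summit in an untranslated exon. The neuronal heavy chains were lower, at 37.6, 21.2 and 21.6 for KIF5A (percentile 60.5 ± 2.96) and 32.8, 17.2 and 20.6 for KIF5C (49.6 ± 8.71). For KIF5A the peak taken in A lay 1031 bp downstream of its nearest own TSS and 22 bp from the TSS of DCTN2, a dynactin subunit gene, and its canonical TSS had a fold enrichment of 27.1 there.

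Kinesin-2 genes were bound with the exception of KIF17. KIF3A, whose product pairs with KIF3B or KIF3C and drives intraflagellar and vesicle transport, had 59.8 in A, the highest value of any kinesin in that replicate, and 22.2 and 21.3 in B1 and B2 (percentile 73.2 ± 20.1). Its peak in A spanned chr5:132072698-132073650. The partner genes stood at 37.7, 19.9 and 16.2 for KIF3B (51.1 ± 10.7) and 34.6, 17.7 and 20.04 for KIF3C (51.1 ± 6.82).

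The 5 bound kinesin-3 genes, whose products carry vesicles, endosomes and mitochondria, lay in the middle of the range, and KIF1A of the same family was unbound. KIF1B, a motor of mitochondria and synaptic vesicle precursors, had 33.5, 17.6 and 20.4 in A, B1 and B2 (percentile 50.5 ± 7.53). KIF1C, a motor of Golgi-derived vesicles, had 39.0, 16.9 and 16.9 (49.2 ± 13.4). KIF13A, which moves recycling endosomes and in pigment cells takes part in melanosome formation, had 31.9, 13.6 and 20.7 (44.3 ± 16.3), and KIF13B, its paralogue, had 38.6, 18.4 and 14.5 (47.3 ± 15.7). KIF16B, a motor of early endosomes, had 34.6, 15.8 and 16.7 (43.6 ± 9.02). The mean percentiles of these 5 genes spanned only 43.6 to 50.5, less than the SD between replicates of KIF1C or KIF13A.

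The kinesin-4 pair KIF21A and KIF21B, regulators of microtubule growth in neurons and other cells, stood at opposite ends. KIF21A had 54.5, 27.9 and 26.7 (percentile 84.9 ± 6.31), with a peak at chr12:39836194-39837790 in A. KIF21B had 12.3, 5.84 and 8.17 (7.82 ± 3.11), the lowest of the bound transport genes in every replicate. KIFC2, a minus-end motor described in neurons, had 38.6, 17.1 and 21.4 (55.5 ± 12.8), but its strongest peak lay 717 to 739 bp upstream of its nearest TSS and 102 to 124 bp from the TSS of TMEM276.

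Kinesins of cilia were spread from low to high. KIF24, which shortens centriolar microtubules and restrains cilium formation, had 44.5, 25.1 and 28.4 in A, B1 and B2 (percentile 78.2 ± 6.90), the third highest of all members. Its summits lay 121 to 160 bp from NUDT2, a nucleotide hydrolase gene, and the peaks nearest to KIF24 itself had 18.9, 20.1 and 13.9. KIF27 had 36.96, 19.9 and 18.8 (54.1 ± 4.61), whereas its paralogue KIF7, a regulator of Hedgehog signalling at the tip of cilia, had 17.3, 10.2 and 10.5 (16.2 ± 0.840). KIF9, a motor of motile cilia, had 20.9, 22.6 and 19.6 (46.4 ± 21.7), and KIF6 had 15.9, 8.02 and 8.64 (11.5 ± 2.44). Of the other kinesins, KIF2A, a depolymerase of spindle poles and neurites, had 40.5, 22.8 and 21.8 (65.0 ± 2.26) and KIFC3, a minus-end motor of cell junctions, had 29.2, 13.8 and 14.0 (32.5 ± 6.73). KIF26B, a member of an atypical family, had 11.2, 7.78 and 6.29 and the lowest mean percentile of the bound kinesins (7.28 ± 1.72), within the spread of KIF21B, which was lower in B1.

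The 8 unbound members were KIF2B and KIF4B of the mitotic list, KIF1A and KIF17 of the transport list, KIF19 of the cilia list, and KIF12, KIF25 and KIF26A. For 7 of them the nearest peak lay at least 56175 bp from any of their TSSs in all 3 replicates. KIF17, a neuronal kinesin-2 motor, was the exception, with nearest peaks 1094, 1109 and 1124 bp away in A, B1 and B2, just outside the window. Those peaks lay inside the gene, with summits 1220 to 1630 bp downstream of an internal TSS among its 9 annotated ones. Their summits stood between chr1:21023302 and chr1:21023712, far from the canonical TSS at chr1:21044500. Fold enrichments were 12.1 (A), 9.21 and 8.87 (2 peaks of B1) and 9.20 (B2). KIF1A, the motor of synaptic vesicle precursors and a gene with 42 annotated TSSs, had no peak within 92602 bp in any replicate. KIF4B is an intronless copy of the X-linked KIF4A, so reads could be placed in either copy, and whether this lowered its signal was not tested. The lists hold called peaks only, so an unbound gene is one without a call at this depth. Of the 8, the promoters of KIF4B, KIF17, KIF1A, KIF19 and KIF26A were CpG-island-like.

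**Figure D2:**
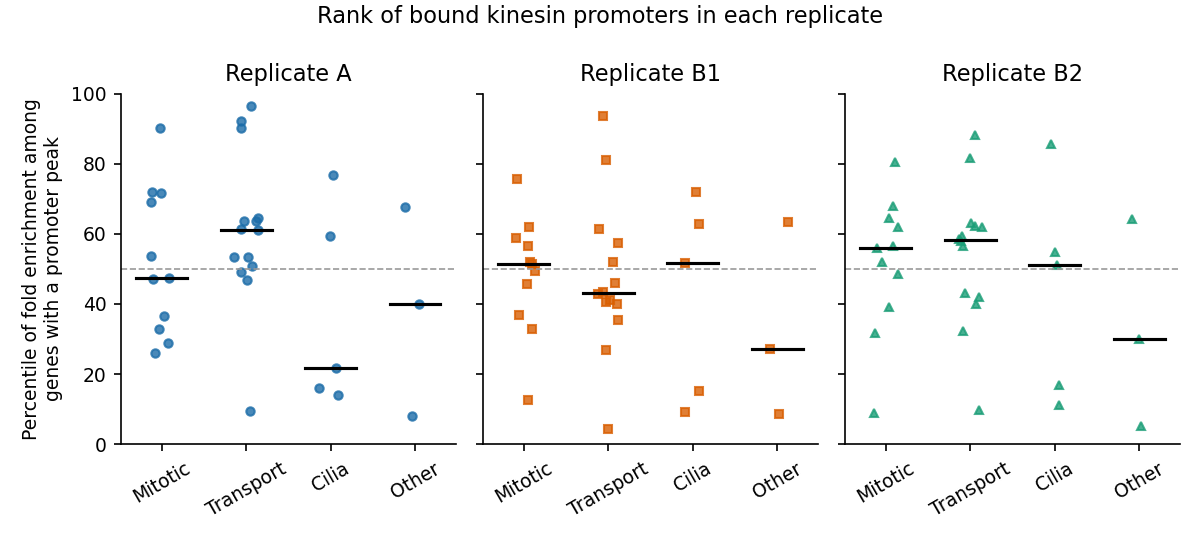
Percentile of fold enrichment among the autosomal protein-coding genes with a promoter peak in that replicate (y axis) for the bound members of the mitotic, transport, cilia and other groups in each replicate. Points are genes, black bars are group medians and the dashed line is 50, and the mitotic median lies below the transport median in A (47.5 against 61.2), above it in B1 (51.4 against 43.1) and near it in B2 (56.0 against 58.2).

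Mitotic and transport kinesins were bound in nearby shares when all promoter peaks within 1 kb were counted. The difference in peak height was smaller than its spread for fold enrichment with all promoter peaks and all 3 replicates. The share bound was 84.6% of mitotic and 87.5% of transport members in each replicate, a difference of -2.88 percentage points (SD 0 because the same genes were bound each time, exact sign-flip permutation test of the 3 differences, two-sided p = 0.25, the smallest that 3 replicates allow). Equal differences give that p-value at any size, so it says nothing about the shares. The share difference widened to -9.46 ± 4.44 points (SD, n = 3) with peaks given to the nearest gene only. In that setting 8 of 13 mitotic and 13 of 16 transport members were bound. With a 2 kb window the share difference was -9.13 points. Median log2 fold enrichment of mitotic members was 5.01, 4.31 and 4.31 over A, B1 and B2, and that of transport members 5.23, 4.14 and 4.35. Differences were thus -0.23, 0.16 and -0.04 on the log2 scale, with no common sign, and its mean of -0.04 ± 0.20 (SD, n = 3) was smaller than its spread (same exact permutation test, p = 0.75). Under some alternatives the mean was larger than its spread, with signs that differed. It was -0.32 ± 0.247 with peaks given to the nearest gene only and 0.109 ± 0.0792 with recovered fragments in place of fold enrichment (exact permutation test, p = 0.25 for each).

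The list of members decided the sign of the small difference in shares. Without the intronless genes KIF2B and KIF4B, all 11 mitotic members left were bound, and the difference became 12.5 points. When the transport list was limited to the 7 neuron-enriched genes KIF1A, KIF3C, KIF5A, KIF5C, KIF17, KIF21B and KIFC2, of which 5 were bound (71.4%), it was 13.2 points. Neuron-enriched members thus ran from no peak (KIF1A) to a mean percentile of 60.5 (KIF5A). The range within each list was far wider than the distance between the lists, since mean percentiles ran from 16.8 to 71.7 for mitotic and from 7.82 to 90.6 for transport members around medians of 51.7 and 50.8.

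Peaks of mitotic members more often had their summit upstream of the TSS, a description for which no test was made. The summit of the strongest peak lay downstream of the nearest own TSS in 3, 4 and 5 of 11 bound mitotic members in A, B1 and B2, a mean of 36.4% ± 9.09 (SD, n = 3), and in 9, 8 and 10 of 14 transport members (64.3% ± 7.14). Over all bound genes the share was 65.9% ± 0.201, and over all bound kinesins 51.5% ± 5.25. Summits of KIF18A, KIF18B, KIF20A, KIF20B and KIF22 lay upstream in all 3 replicates, as did those of KIF11, while those of KIF14, KIF23 and KIFC1 lay downstream in all 3. For KIF22 this refers to the nearest of its 24 annotated TSSs, and its summits lay 116 to 131 bp downstream of the canonical TSS. KIF15 and KIF2C changed side between replicates. When only the canonical TSS was used, the shares were 45.5% for mitotic, 66.7% for transport and 69.6% for all bound genes.

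**Figure D3:**
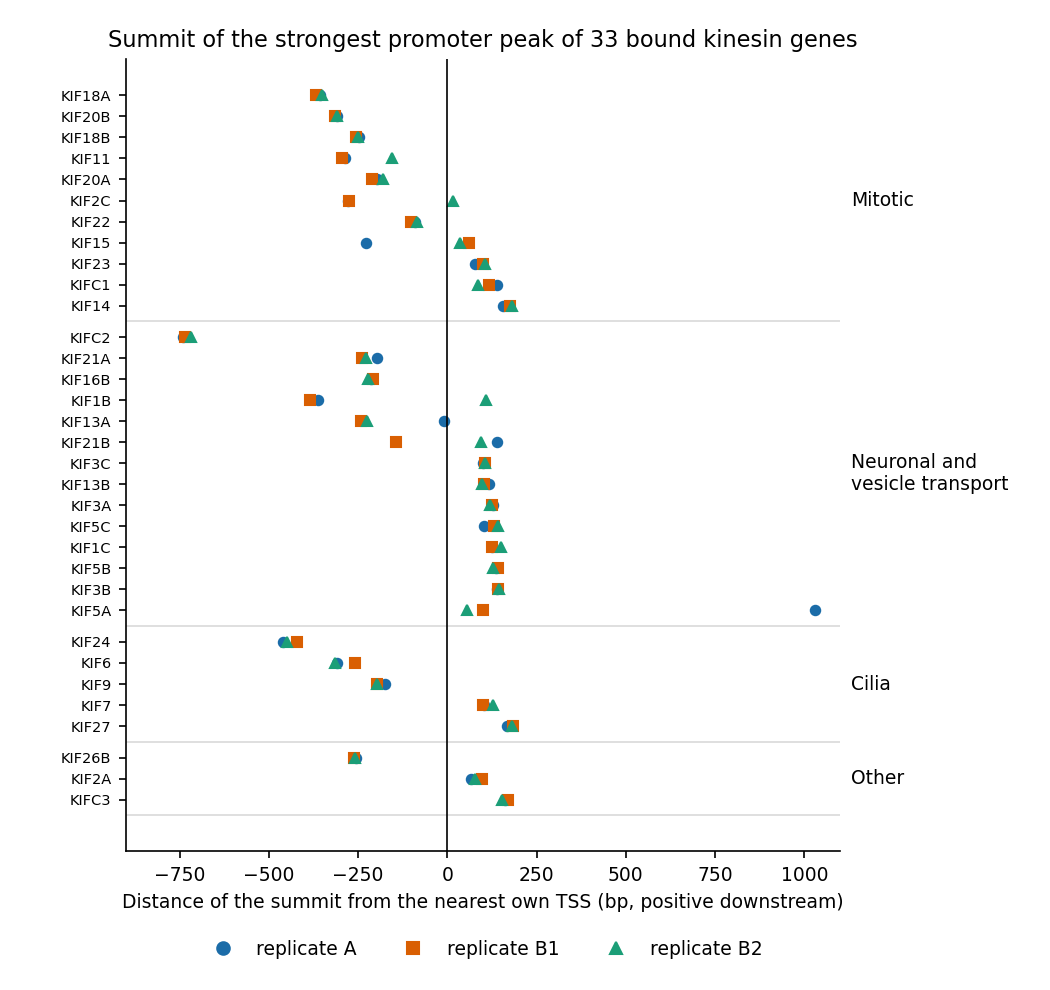
Distance in bp from the nearest own TSS to the summit of the strongest promoter peak (x axis, positive downstream) for the 33 bound kinesin genes (y axis, grouped by role), with 1 marker per replicate. Replicates mostly coincide, 8 to 10 of the 14 transport genes lie downstream, KIF13A, KIF16B, KIF21A and KIFC2 lie upstream in every replicate, and mitotic genes from KIF18A to KIF22 lie upstream apart from KIF2C in B2, with KIFC2 (-739 to -717 bp) and KIF5A in A (1031 bp) as the farthest.

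Several of the upstream summits were shared with a gene on the opposite strand. An oppositely oriented TSS of another gene lay within 1 kb of the canonical TSS of 6 of 13 mitotic members (KIF15, KIF18A, KIF18B, KIF20A, KIF20B and KIF23), 5 of 16 transport members and 15 of all 41 (36.6%), beside 29.5% of all autosomal protein-coding genes. The KIF20A summits lay 179 to 211 bp upstream of KIF20A and nearer to BRD8, a bromodomain protein gene. Those of KIF18A lay 352 to 367 bp from its own TSS and 120 to 135 bp from METTL15, a mitochondrial RNA methyltransferase gene. The KIF9 summits were 63 to 84 bp from KLHL18. For KIF18B the nearest TSS belonged to a long noncoding RNA, KIF18B-DT, at 107 to 117 bp. For KIF3B, whose summits lay downstream of its own TSS, it belonged to an annotated miRNA, AL121897.1, at 2 to 9 bp. In A the KIF15 summit lay 19 bp from KIAA1143, whereas in B1 and B2 it lay 60 and 35 bp downstream of KIF15 itself.

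Another gene was thus nearest to the summit for 5, 4 and 5 of 11 mitotic members in A, B1 and B2, and for 3, 2 and 2 of 14 transport members, beside 21.1%, 21.2% and 21.2% of all bound genes. To which gene of a pair such a peak belongs cannot be told apart from the position alone. When each peak was given only to the gene with the nearest TSS, 28 kinesins kept a promoter peak in all 3 replicates, 8 mitotic, 13 transport, 4 of cilia and 3 other, beside 50.8% of all genes. The 5 lost were KIF15, KIF18B, KIF20B, KIF3B and KIF9. Among the 28, KIF18A, KIF20A, KIF24 and KIFC2 kept only a different and lower peak in each replicate, at 7.52, 9.04 and 7.22 for KIF18A and 13.2, 6.82 and 10.5 for KIFC2. Without members that have an opposite TSS within 2 kb of any own TSS, 14 bound kinesins were left, of which KIF14 was the only mitotic one. Of the summits of these 14, 59.5% lay downstream, beside 73.3% of all bound genes treated alike. The KIF14 summit lay downstream in all 3 replicates, and the share was 54.2% for the 8 transport members left. With KIF14 alone, the mitotic and transport lists could not be compared in this subset.

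At least 2 separate promoter peaks were found in 8, 7 and 10 of 11 mitotic members in A, B1 and B2, and in 5, 6 and 7 of 14 transport members. Over all bound genes the shares were 44.7%, 48.2% and 47.5%. The number of annotated TSSs, which widens the window, ranged from 1 for KIF3B to 33 for KIFC3 among bound members. With windows at the canonical TSS only, the same 33 kinesins were bound, beside 58.2% of all genes.

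The lists differed in the letters of their promoters. In the 250 bp before to 50 bp after the canonical TSS, searched on both strands, the CHR letters TTTGAA were found in 9 of 13 mitotic promoters (69.2%), 1 of 16 transport promoters (KIF5B, at -140 bp), 0 of 6 of the cilia list and 1 of 6 other (KIF26B), beside 11.4% of all promoters. CCAAT was found in 10 of 13 mitotic (76.9%) and 5 of 16 transport promoters (31.2%), beside 35.7% of all. E2F letters (TTGGCGC, or else TTCCCGC, or else TTCGCGC, or else TTGCCGC) were in 4 of 13 mitotic (30.8%) and 6 of 16 transport promoters (37.5%), beside 17.0% of all. Among all CpG-island-like promoters the shares were 7.39% for CHR, 34.6% for CCAAT and 22.7% for E2F letters. TTCAGCACC, a stretch of the element of the neuronal gene repressor REST, was in none of the 41 and in 0.369% of all promoters. E2F letters on the opposite strand can run into a CCAAT box, and both were then counted.

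**Figure D4:**
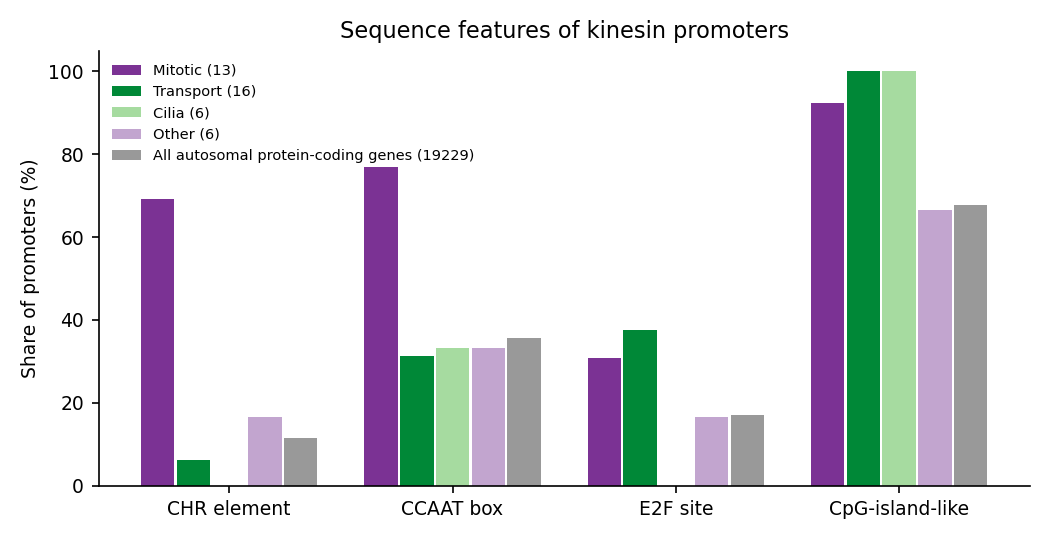
Share of promoters in percent (y axis, from 0) that hold the CHR, CCAAT or E2F letters or are CpG-island-like, for the 4 groups of kinesin genes and for all 19229 autosomal protein-coding genes. The mitotic bars for CHR (69.2%) and CCAAT (76.9%) stand above all other groups, while CpG-island-like promoters are frequent in every group.

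Both CHR and CCAAT letters were present in 8 of 13 mitotic promoters, 1 of 16 transport promoters and 4.80% of all promoters. Of these 8, KIF11, KIF14, KIF18A, KIF18B, KIF20B, KIF23 and KIFC1 were bound by PHF8 and KIF4B was not. Across all genes with a CpG-island-like promoter, 83.3% of those with CHR letters and 81.3% of those without were bound. KIF20A, KIF22 and KIF2C held no CHR letters in the window and were bound, and KIF20A and KIF22 held CCAAT.

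Paralogues were set side by side within each replicate, in 10 pairs. KIF21A exceeded KIF21B by 2.04 ± 0.29 on the log2 scale (SD, n = 3), the widest gap of the 10, and KIF5B exceeded KIF5C by 0.74 ± 0.24 and KIF5A by 0.55 ± 0.13. KIF18B exceeded KIF18A by 0.44 ± 0.13, and KIF3A exceeded KIF3B by 0.41 ± 0.25 and KIF3C by 0.40 ± 0.36. In these 6 pairs the same gene was higher in all 3 replicates, and the exact sign-flip permutation test gave p = 0.25 for each, the smallest value it can give. KIF18B and KIF3B had no peak in any replicate when peaks went to the nearest gene only, so both differences rest on peaks nearest to another gene. The KIF18A peaks compared are likewise nearest to METTL15, and in A the KIF5A peak is nearest to DCTN2. The KIF20A and KIF20B peaks compared below are also nearest to other genes in all 3 replicates. With peaks given to the nearest gene only, KIF20A had 17.0 in A and 11.8 in B2, against 34.7 and 15.4 for KIF20B. In B1 KIF20A had 15.2 and KIF20B no peak. The other 4 pairs changed sign between replicates, with mean differences of 0.01 ± 0.28 for KIF20A over KIF20B (p = 1), -0.06 ± 0.51 for KIF13A over KIF13B (p = 1), 0.04 ± 0.24 for KIF1B over KIF1C (p = 0.75) and 0.08 ± 0.13 for KIF2A over KIF2C (p = 0.5), all by the exact test.

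Genes that work with kinesins were counted by the same rule. All 12 spindle partners had a promoter peak in all 3 replicates, as did 10 of 12 transport partners and 11 of 12 cytoplasmic dynein subunits. The share was 61.0% over all genes and 81.5% over those with a CpG-island-like promoter. How many of the partner genes have such a promoter was not counted. Their median mean percentile was 30.1 for spindle partners, 73.6 for the bound transport partners and 62.5 for the bound dynein subunits, around the 51.7 and 50.8 of the bound mitotic and transport kinesins. The transport partners without a peak were KLC3, a kinesin light chain, and MAPK8IP1, a cargo adaptor, and the dynein subunit without one was the intermediate chain gene DYNC1I1.

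Within the partner lists, CENPE, a kinetochore kinesin named outside the KIF series, had 26.8, 13.3 and 11.8 (percentile 27.1 ± 6.37). RACGAP1, which joins KIF23 in centralspindlin, had 25.3, 12.3 and 9.004 and was low like KIF23. PLK1, a mitotic kinase, was the lowest spindle partner at 10.5, 5.80 and 11.2 (10.1 ± 7.92), and NUSAP1, a spindle microtubule binder, the highest at 41.3, 43.0 and 36.3 (88.5 ± 16.3). KLC1, the light chain that couples kinesin-1 to cargo, had 53.8, 28.7 and 33.8 (89.7 ± 5.90), next to the 90.6 of its heavy chain KIF5B. KIFAP3, the third subunit of the KIF3 motor, had only 10.6, 8.87 and 7.23 (8.79 ± 2.17), far below KIF3A. Among dynein genes, DYNLRB1 was highest with 58.8, 34.9 and 26.1 (89.9 ± 8.78), and DYNC2H1, the heavy chain of the ciliary dynein, was lowest with 7.01, 6.14 and 5.59 (3.92 ± 0.759).

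Stricter limits on peak height showed which kinesins kept a call. At a fold enrichment above 10 in all 3 replicates, 29 members were bound, beside 50.8% of all genes, and KIF21B, KIF23, KIF26B and KIF6 were lost. Above 20, a limit chosen after the values were seen, 8 members were left, beside 24.8% of all genes. They were KIF20A and KIF20B of the mitotic list, KIF21A, KIF3A, KIF5A and KIF5B of the transport list, KIF24 and KIF2A. KIF26B, low at its promoter, had a further peak inside the gene beyond the window, at 1873 to 1944 bp from the TSS, with 19.9 (A), 7.61 (B1) and 8.68 (B2).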

How the data were processed

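PHF8 ChIP-seq peak lists of 3 SKMEL-147 replicates were analysed, and the inputs enter only through the authors' values. As the study's methods and the labels state, reads were aligned by the authors to hg19 (GRCh37) using Bowtie2 defaults, and they called narrow peaks with MACS for each replicate against input. Tool versions and the handling of duplicates are not given in the sources used here. The deposited lists give the fold enrichment as a linear ratio, −log10 of the p-value and the q-value, a score derived from the q-value (not used) and the summit. All listed peaks passed the study's cutoffs, above 1.5 for fold enrichment and, as read here, below 0.05 for the q-value. The Wilson intervals treat genes as independent draws and reflect only the number of genes in a list, and they cover no read counting error.

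TSSs came from GENCODE release 44 lifted to GRCh37, and an overlap of 1 bp with a window counted. For KIF5C, which has no canonical transcript there, the 5′ end of the gene was used. ChIP fragments at a summit were recovered as the whole number that gives both the deposited fold enrichment and p-value. Python 3.11.15, pandas 2.3.3 and scipy 1.17.1 were used. The fragment recovery and the assignment of peaks to TSS windows were tested on simulated data, and the other calculations were not. Genes were named by the membership rule, and neighbours when a TSS lay within 1 kb of the strongest peak, and the partner genes given with values were picked after these were seen. The members, the role lists and the partner lists were chosen with earlier results of these data known, so no test over genes was made. Alternatives were other peak cutoffs, windows, TSS sets, peak assignments, member lists and left-out replicates.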

Additional observations from a re-analysis of the deposited data

How the results depend on the processing

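The count of 33 bound kinesins stayed between 28 and 34 under 13 of 14 alternatives, some of which could not move it, as given below. It was highest at a 2 kb window, which added KIF17 through peaks near an internal TSS. It was 8 at a fold enrichment above 20, a limit added after seeing the data. The difference between mitotic and transport shares (-2.88 points) turned to 12.5 without KIF2B and KIF4B, 13.2 with the neuron-enriched transport list and 4.17 with CpG-island-like promoters only. It widened to -9.46 (SD 4.44) with peaks given to the nearest gene only and to -9.13 at a 2 kb window. The difference in median log2 fold enrichment turned to 0.0178 with the neuron-enriched list and 0.109 (SD 0.0792) with recovered fragments, and was -0.32 (SD 0.247) when peaks went to the nearest gene only. With replicates left out it ranged from -0.134 to 0.0612, turning positive without A. Leaving out a replicate could not change the 33 genes or the -2.88 points, because each member had a promoter peak in all 3 replicates or in none. For the same reason, asking for a peak in at least 2 replicates could not change the count. With a replicate left out, the median percentile ranged from 49.6 to 54.6. The share of downstream summits was 59.5% without members near an opposite-strand TSS, of which 14 genes were left. The causes were not tested. Differences between lists and between paralogues were taken within each replicate. Samples could not be paired across conditions, because only 1 group has peak lists here. With 3 replicates no test could go below 0.25, so a height difference of any size would have stayed without a small p-value. The SD of about 0.2 on the log2 scale describes the spread between replicates and is not a limit of detection.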
